A study of Gossypium hirsutum with 9 samples.

Results

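Cystathionine gamma-synthase is the study's name for 1 probe, 28K_167_D03. It is 1 of 29183 different probes on a cDNA microarray of cotton (Gossypium hirsutum) ovule and fiber genes. Other probes of the same enzyme were not looked for, since most probes had no gene name. The probe was chosen by the ratio between the lines XinWX and XinFLM, since the study names it so among genes that differed between them on these arrays. That ratio is therefore given as a description, with no test. XinWX is a mutant whose seeds carry neither lint nor fuzz, and XinFLM, isolated from XinWX, carries lint without fuzz and differs from it at a single locus for lint according to the study. Both lines are mutants, and a fuzzed and linted cotton was not on the arrays. RNA came from whole ovules with any fibers on them at -1, 0 and 1 day post anthesis (DPA), from field-grown plants. The day the flower opens is 0 DPA. In the study's electron microscopy XinWX ovules had no fiber protrusions at any of these stages. XinFLM ovules had none at -1 DPA and many at 0 and 1 DPA, so the tissue of the lines differed from 0 DPA on. In such whole-ovule samples fewer cells of a type and less RNA per cell cannot be told apart. Each of 9 arrays carried both lines at the same stage in different dyes, with 3 arrays per stage. XinWX was labeled with Cy3 on replicates 1 and 3 and with Cy5 on replicate 2, the dye swap.

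In plants cystathionine gamma-synthase joins O-phosphohomoserine to cysteine and makes cystathionine, the step that commits carbon to methionine. It draws on the same substrate as threonine synthase, so that the enzyme stands at a branch between these amino acids. Methionine is used for protein and for S-adenosylmethionine, the methyl donor of the cell and the precursor of ethylene and polyamines. In Arabidopsis the messenger RNA of this enzyme becomes unstable when S-adenosylmethionine is plentiful. Ethylene is known to promote the elongation of cotton fibers in ovule culture. For ovules cultured at anthesis, however, the study lists it among the hormones that inhibit fiber development.

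The study's primer pair for quantitative PCR is shown because it ties the name of the enzyme to a sequence, and both primers are given 5′ to 3′ with no part in capitals. In the primer list the probe is written with the prefix 29k in place of 28k, with the same plate and well. The study also measured selected genes by quantitative PCR in both lines at these stages and reports general agreement with the arrays. Its text does not name this probe among them, and the PCR values were not used here. The cDNA of the spot itself was not used here, and the primers were not placed on a genome.
Forward primer: gcagaggagaagataagt
Reverse primer: ataacagtagccgagatt

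The spot was bright in both lines on every array. Its intensity minus the local background lay between 4498 and 38474 scanner units, above the limit of 400 units under which the methods remove a spot. The local background was between 84 and 536 units. The spot carried the same flag value, 100, on all 9 arrays and not the lowest flag, which 25.9% to 40.6% of the probe spots had. The standard deviation over the pixels of the spot was 21.3% to 39.4% of their mean.

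At -1 DPA the net intensity was 29459, 38474 and 20342.5 units in XinWX, against 9975.5, 11044 and 11784.5 units in XinFLM (replicates 1, 2 and 3). Each XinWX value was above each XinFLM value, and the replicate 3 array had the lowest XinWX and the highest XinFLM signal. At 0 DPA the signals were 20770, 15221 and 21189.5 units in XinWX, against 17714, 13049.5 and 12307 units in XinFLM. On each array XinWX was the brighter line, but the lowest XinWX value was under the highest XinFLM value. At 1 DPA the signals were 12378, 19035.5 and 24631 units in XinWX, against 4498, 4922 and 9383.5 units in XinFLM. The lines did not overlap at this stage, and replicate 3 was the brightest array in both. The share of all probes without overlap at -1 or 1 DPA was not counted.

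**Figure D1:**
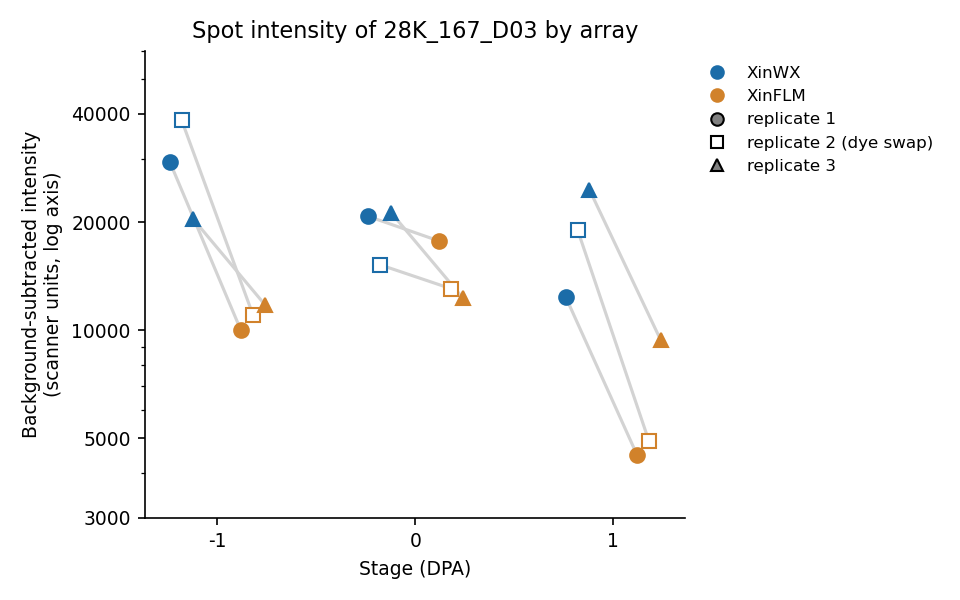
Background-subtracted intensity of 28K_167_D03 (scanner units, log axis) at each stage (DPA) in XinWX (blue, left) and XinFLM (orange, right), with a grey line joining the lines on 1 array. XinWX lies above XinFLM on each of the 9 arrays, and at 0 DPA replicates 1 and 2 have the flattest lines.

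These raw values also carry differences between the channels of an array as a whole. The median net intensity over all probes in XinWX was between 0.965 and 1.11 times that in XinFLM on 8 arrays, but 2.40 times (1664 against 694 units) on replicate 3 of 1 DPA. On that array the raw ratio of the spot was 2.62-fold, and it was 1.74-fold after normalization by loess, a smooth curve fitted through the log ratios of all probes of an array against their brightness. On the other arrays the normalization moved the log2 ratio by -0.16 to 0.20.

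After normalization, cystathionine gamma-synthase was higher in XinWX on all 9 arrays. Of the 18150 probes that were above the faint limit on every array, 6.94% were higher in XinWX on all 9. At -1 DPA the log2 ratio of XinWX over XinFLM was 1.64, 1.64 and 0.99 on replicates 1, 2 and 3, a mean of 1.42 ± 0.38 (SD, n = 3 arrays) or 2.68-fold. Among 23170 probes kept at this stage 0.691% had a larger mean ratio, and 2.09% were at least 2-fold higher in XinWX. At 0 DPA the log2 ratios were 0.40, 0.22 and 0.91, a mean of 0.51 ± 0.36 or 1.42-fold. Here 3.46% of 22654 probes had a larger ratio, and 0.455% reached 2-fold in XinWX, which this probe did not. At 1 DPA the log2 ratios were 1.59, 1.91 and 0.80, a mean of 1.44 ± 0.57 or 2.70-fold. A larger ratio was found for 0.575% of 22077 probes, and 1.81% reached 2-fold in XinWX. The study chose the probe on this contrast, so these shares only say where it lies in the distribution. That distribution was narrower at 0 DPA, with a 95th percentile of 0.45 against 0.71 at -1 DPA and 0.67 at 1 DPA. Of the genes listed as markers of fiber initials, only a lipid transfer protein, LTP, 28K_179_F11, could be matched to a probe. The match came from the study's primer list, and the study also chose this probe on these arrays. Its log2 ratio of XinWX to XinFLM was -0.54 ± 0.02 at -1 DPA, -1.43 ± 0.31 at 0 DPA and -2.73 ± 0.13 at 1 DPA (SD, n = 3 arrays). XinWX was thus increasingly below XinFLM for this marker, and its part in the ratio of cystathionine gamma-synthase was not tested. Markers of other tissues were not checked, since no gene names were used for the remaining probes.

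**Figure D2:**
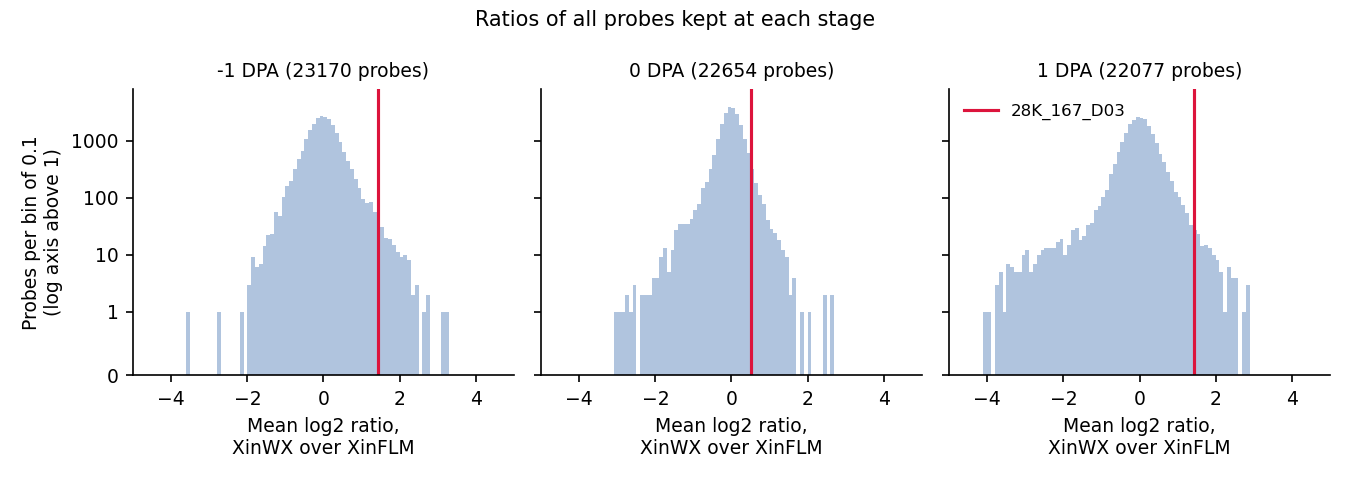
Mean log2 ratio of XinWX over XinFLM of every probe kept on at least 2 arrays of a stage, as probes per bin of 0.1 (log axis above 1), with 28K_167_D03 as a red line. The probe lies in the right tail at -1 and 1 DPA, at 1.42 and 1.44. At 0 DPA, where the distribution is narrower, it lies nearer to the bulk of the probes, at 0.51, above the 95th percentile of 0.45.

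The mean ratio was thus smaller at anthesis than on the day before or after, by log2 0.91 and 0.93, and the ratios of -1 and 1 DPA differed by 0.01. This course was not the same on all arrays. On replicate 1 the lines differed by 3.12-fold, 1.32-fold and 3.02-fold at -1, 0 and 1 DPA, and on replicate 2, with the dyes exchanged, by 3.12-fold, 1.16-fold and 3.76-fold. On replicate 3 the fold was 1.98, 1.88 and 1.74, under 2 at each stage, with no low value at anthesis. Before normalization replicate 3 gave 1.73-fold, 1.72-fold and 2.62-fold. Its value at 1 DPA thus rests on the correction of the array whose channel medians differed by 2.40-fold. With replicate 3 included, the values of 0 DPA (0.22 to 0.91) overlapped those of 1 DPA (0.80 to 1.91). The highest value of 0 DPA was just under the lowest of -1 DPA (0.99). Without the replicate 3 array of the stage, the log2 ratio was 1.64 at -1 DPA, 0.31 at 0 DPA and 1.75 at 1 DPA.

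**Figure D3:**
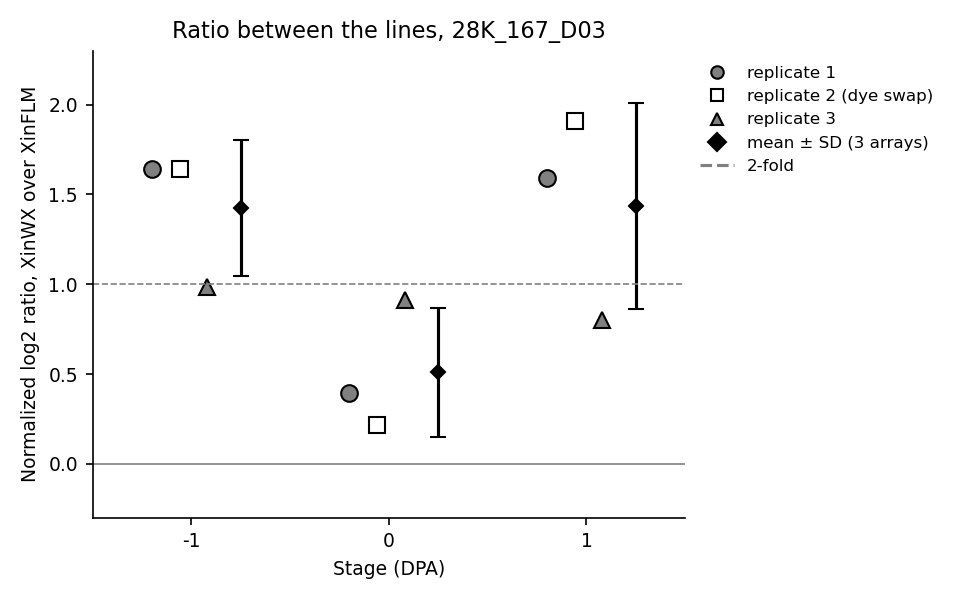
Normalized log2 ratio of XinWX over XinFLM for 28K_167_D03 on each array (symbols by replicate number, dye swap open) with the mean and SD of 3 arrays, and a dashed line at 2-fold. Replicates 1 and 2 drop to 0.40 and 0.22 at 0 DPA, and replicate 3 stays between 0.80 and 0.99 at all stages. The replicate 3 value of 1 DPA was moved most by the normalization, by log2 -0.59.

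The arrays may not be independent samples, since the methods speak of 2 biological replicates besides the swap while the labels number 3. Across probes, which are not independent, the log ratios of replicates 1 and 2 correlated at r = 0.91, 0.84 and 0.80 at -1, 0 and 1 DPA. Replicates 1 and 3 correlated at 0.65, 0.51 and 0.60. Which arrays share an RNA sample is not stated, and the smaller ratio at anthesis was seen on the 2 arrays that resembled each other more. The SD over 3 arrays may be technical in part. With replicates 1 and 2 averaged as 1 sample, the mean log2 ratios were 1.31, 0.61 and 1.28. A dye term common to the stages gave 1.46, 0.54 and 1.47.

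Of 20873 probes kept at all stages, 112 (0.537%) showed the course of the mean, at least 2-fold higher in XinWX at -1 and 1 DPA and under 2-fold at 0 DPA. Among these 112, the ratio was lowest at 0 DPA in 107 on replicate 1, in 111 on replicate 2 and in 103 on replicate 3. The cystathionine gamma-synthase probe was 1 of the 9 others on replicate 3. All 3 replicates entered the means that chose these probes, and over all 20873 probes the same order was found for 33.7%, 33.0% and 29.4%.

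The levels of each line were then compared on the log2 scale after normalization across the arrays, which makes the average brightness of all arrays alike. At -1 DPA the log2 level was 14.60, 14.80 and 14.64 in XinWX (14.68 ± 0.10, SD, n = 3 arrays), against 12.95, 13.16 and 13.66 in XinFLM (13.25 ± 0.36). At 0 DPA it was 14.20, 13.82 and 14.54 in XinWX (14.19 ± 0.36), against 13.80, 13.61 and 13.63 in XinFLM (13.68 ± 0.11). At 1 DPA it was 14.07, 14.76 and 14.03 in XinWX (14.29 ± 0.41), against 12.48, 12.85 and 13.23 in XinFLM (12.85 ± 0.38). The lines did not overlap at any stage, and came closest at 0 DPA. How many other probes show such a separation was not counted. In descending order the mean levels were XinWX at -1, 1 and 0 DPA, then XinFLM at 0, -1 and 1 DPA. The only neighbors whose arrays did not overlap were XinWX at 0 DPA and XinFLM at 0 DPA, with log2 levels of 13.82 to 14.54 against 13.61 to 13.80. At anthesis the mean of XinWX was thus lower and that of XinFLM higher than 1 day before.

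**Figure D4:**
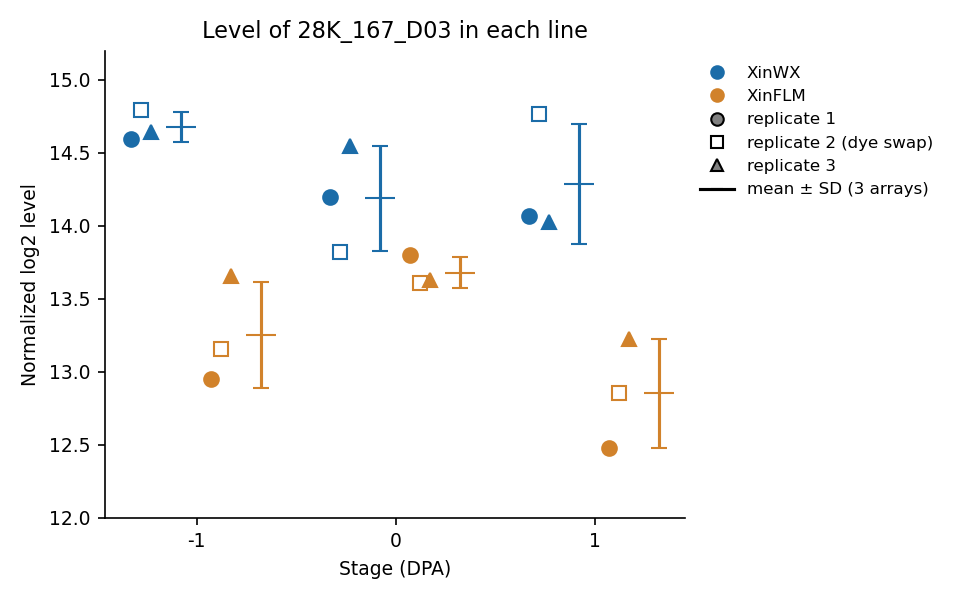
Normalized log2 level of 28K_167_D03 in XinWX (blue, left) and XinFLM (orange, right) at each stage, by array, with the mean and SD of 3 arrays. At 0 DPA the lines lie closest, with means of 14.19 in XinWX and 13.68 in XinFLM, and XinFLM has its lowest mean, 12.85, at 1 DPA.

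Changes of a line between stages were tested with limma's separate-channel analysis over all probes. They were not the contrast that chose the probe, but the levels compared are those that form its ratio between the lines. A low XinFLM or a high XinWX level at a stage also made that ratio larger, so the tests are not independent of the choice. A false discovery rate (FDR) under 0.05 with a fold change of at least 2 was reached in 0 of 6 comparisons, and 1 had an unadjusted p under 0.05. That was the change of XinFLM between 0 and 1 DPA, with a log2 level of 12.85 at 1 DPA against 13.68 at 0 DPA. The difference was log2 -0.83 (standard error 0.36, 95% interval -1.59 to -0.06, adjusted p = 0.208 in limma). Each of the 3 XinFLM arrays of 1 DPA was below each of those of 0 DPA. Under the alternative settings and without single arrays its adjusted p was 0.054 at the lowest, without replicate 3 of 1 DPA (log2 -1.01), and 0.655 at the highest. In XinFLM, 2.94% of the 21071 probes tested passed between 0 and 1 DPA, and 4294 had an unadjusted p under 0.05 in limma. How many probes had arrays without overlap between these stages was not counted.

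The other 5 changes were smaller. In XinFLM the level at 0 DPA was log2 0.42 above that at -1 DPA (95% interval -0.34 to 1.19, adjusted p = 0.807 in limma), where 0.756% of all probes passed. At 1 DPA it was 0.40 below that at -1 DPA (log2 -0.40, -1.17 to 0.36, adjusted p = 0.507 in limma), where 9.95% passed. In XinWX the level at 0 DPA differed from that at -1 DPA by log2 -0.49 (-1.26 to 0.28, adjusted p = 0.74 in limma), where 0.441% passed. Between 1 and 0 DPA it differed by 0.10 (-0.67 to 0.87, adjusted p = 0.918 in limma, 0.237% passed), and between 1 and -1 DPA by -0.39 (-1.16 to 0.38, adjusted p = 0.586 in limma, 1.98% passed). Some sizes depended on the setting or on 1 array. The change of XinFLM between -1 and 1 DPA, -0.40, was -0.77 with no normalization between arrays, and -0.20 and -0.21 without replicate 3 of -1 DPA and replicate 1 of 1 DPA. That of XinWX between these stages, -0.39, was -0.75 with no normalization between arrays and -0.63 without replicate 2 of 1 DPA. Between -1 and 0 DPA the change of XinWX, -0.49, was -0.31 without replicate 2 of 0 DPA, and that of XinFLM, 0.42, was 0.27 without replicate 1 of -1 DPA. The 95% intervals of these 5 changes include 2-fold in 4, and the difference between the lines in these changes was not tested.

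The probes most like cystathionine gamma-synthase were found by the Pearson correlation of the 18 normalized channel values, among 18149 other probes above the faint limit on all arrays. The 18 values come in pairs from 9 arrays, and the correlations are descriptions. With these settings no probe reached 0.9, and the median was -0.0035. The 2 highest were 28K_270_E10 (r = 0.895) and 28K_287_G11 (r = 0.890), which the files used here do not pair with a gene. The log2 ratio of 28K_270_E10 was 1.14 ± 0.17, 0.37 ± 0.11 and 0.74 ± 0.27 at -1, 0 and 1 DPA, and that of 28K_287_G11 was 1.45 ± 0.46, 0.73 ± 0.23 and 1.74 ± 0.33.

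Of the 17 other probes that the study names, 16 were above the limit on all arrays. The most similar of these 16 were both probes of the GH3 family, whose proteins join amino acids to plant hormones such as auxin and jasmonic acid. Among all 18149 candidates they ranked only 58 and 123, and 92 candidates reached a correlation of 0.8 over the channels. For 28K_086_B03 the correlation was 0.83 over the channels and 0.83 over the 9 log2 ratios, and its ratios differed from those of cystathionine gamma-synthase by 0.34 (root mean square). XinWX over XinFLM gave log2 ratios of 1.64, 1.48 and 1.79 on the arrays of -1 DPA, 0.71, 0.52 and 0.80 at 0 DPA, and 1.33, 1.78 and 1.06 at 1 DPA. On this probe the ratio was lowest at 0 DPA on each replicate, replicate 3 included. The second GH3 probe, 28K_236_A10, had a correlation of 0.79 over the channels and log2 ratios of 1.06 ± 0.09, 0.45 ± 0.07 and 0.88 ± 0.64. On its replicate 3 the ratio was 1.07, 0.42 and 0.29 at -1, 0 and 1 DPA, lowest at 1 DPA, as for cystathionine gamma-synthase. The third, 28K_057_D05 of the ABC transporter family of membrane transport proteins, had a correlation of 0.63 (rank 524). Its log2 ratios were 1.44 ± 0.11, 0.44 ± 0.11 and 0.78 ± 0.11, lowest at 0 DPA on each replicate. The correlation with 28K_270_E10 ran over 0.849 to 0.951 and that with 28K_287_G11 over 0.849 to 0.959 across settings, so that 0.9 was passed in some. For 28K_086_B03 it ran over 0.779 to 0.892, for 28K_236_A10 over 0.758 to 0.835 and for 28K_057_D05 over 0.572 to 0.792. Other genes of methionine synthesis were not analysed here, since the files used do not pair further probes with gene names.

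**Figure D5:**
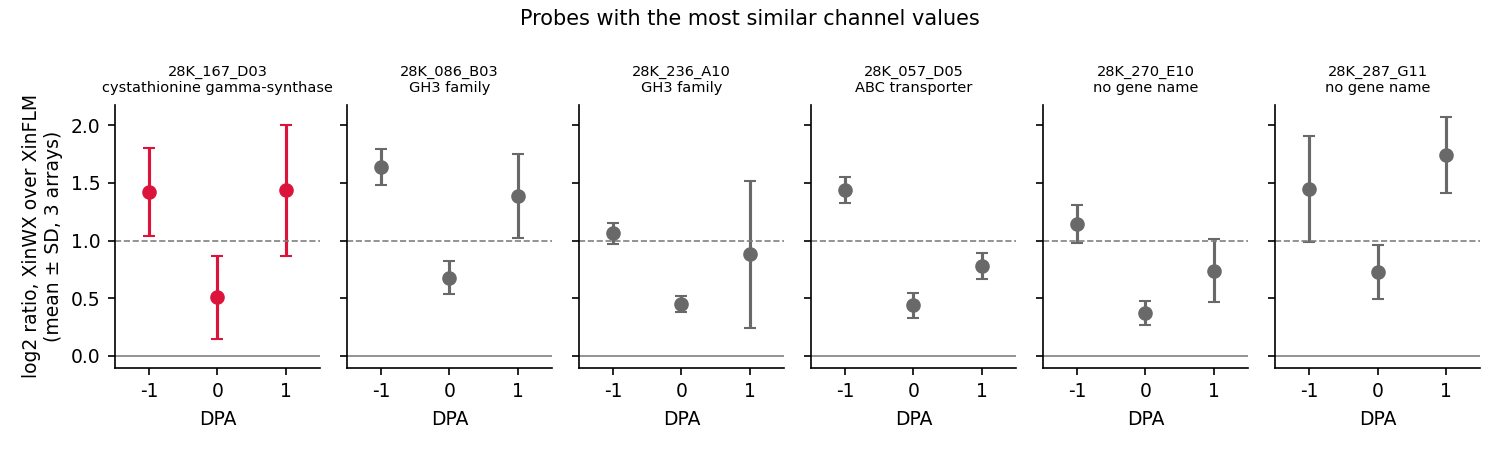
Log2 ratio of XinWX over XinFLM (mean ± SD of 3 arrays) at each stage for 28K_167_D03 (red), the 3 most similar probes that the study names and the 2 most similar of all probes. Each of the 6 probes has its smallest mean ratio at 0 DPA, from 0.37 to 0.73. The others were picked for resembling the channel values of 28K_167_D03, so a similar course is in part given by that choice.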

How the data were processed

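Per the file headers, the scanner output gives spot and local background intensity at both wavelengths, not normalized, made by the authors with LuxScan. The authors also deposited log2 ratios (Cy5 to Cy3) after within-array normalization; limma 3.4.5 and R 2.12.2 stand in the submitters' processing notes. These ratios, used as an alternative, correlated with the present ones at r = 0.944 to 0.998.

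Background was corrected on median intensities by normexp, with an offset of 50 (limma 3.58.1, statmod 1.5.0, R 4.3.3). Spots under 400 net units in both channels were left out of the loess curve and of the ratios. Ratios were normalized by loess (span 0.3, 4 iterations) and turned to XinWX over XinFLM. Of 29184 probe spots per array, 18.2% to 29.6% were faint, and 1 probe had a pair of spots, which were averaged. Changes within a line were fitted after Aquantile normalization over all probes, faint spots included (intraspot correlation 0.723). The Benjamini-Hochberg adjustment was made over the probes kept on at least 2 of 3 arrays at both stages. The p-values rest on the spread between and within arrays, pooled with that of all probes and with 1 intraspot correlation for all. They therefore do not measure the spread of this probe alone, and its standard error was 0.36 in each comparison. The spread may be technical, and 3 arrays per stage limit the precision. The fits were tested on simulated data. Plots used matplotlib 3.10.9 (Python 3.11.15).

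The probe and the rules for named probes were chosen with earlier results of these data known. Named were this probe, the 3 most similar probes among those the study names and the 2 most similar of all.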

Additional observations from a re-analysis of the deposited data

How the results depend on the processing

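The log2 ratios between the lines were computed again under 14 other settings and without each of the 9 arrays. Under the other settings they ran over 1.31 to 1.51 at -1 DPA, 0.43 to 0.61 at 0 DPA and 1.20 to 1.47 at 1 DPA, and without single arrays over 1.31 to 1.64, 0.31 to 0.65 and 1.20 to 1.75. The lowest value at 0 DPA, 0.31 against 0.51, was that without replicate 3. The setting with means over the pixels was added after seeing the data. The ratio at 0 DPA was smaller than at -1 and at 1 DPA in each of these runs. The difference between 1 and -1 DPA, 0.01, had no stable sign (-0.31 with scale normalization between arrays to 0.05 with means over the pixels, and -0.22 to 0.33 without single arrays).

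No change within a line passed under any setting run. The change of XinWX between 0 and 1 DPA, 0.10, turned to -0.19 with no normalization between arrays and to -0.054 with replicates 1 and 2 averaged, and ran over -0.14 to 0.28 without single arrays, with -0.14 and -0.08 without replicate 2 of 1 DPA and of 0 DPA. The cause was not tested. With the replicate block the changes kept their values, since the layout is balanced, and that of XinFLM between 0 and 1 DPA had an adjusted p of 0.15. With replicates 1 and 2 averaged this was 0.655. The block changed no call of the probe. Same-numbered arrays deviated together between -1 and 0 DPA in the log ratio (r = 0.141, 0.261 and 0.129 across probes) and in XinFLM (0.113, 0.144 and 0.360), which rests on the data alone. For XinWX between these stages the values were 0.0927, 0.195 and 0.391, of which the lowest was not over 0.1. For the other pairs of stages no value was over 0.1. The highest there was 0.0945, in XinFLM between 0 and 1 DPA, and some were negative. Over all probes, with replicates 1 and 2 averaged, limma called 384 for XinFLM between -1 and 1 DPA and 0 in the other 5 comparisons, where 1061 to 2047 had an unadjusted p under 0.05. Without replicate 3 of 1 DPA, 3251 were called for XinFLM between -1 and 1 DPA and 2055 between 0 and 1 DPA, and 2050 and 1923 for XinWX. Between -1 and 0 DPA a fit on the 6 arrays of these stages called 387 in XinWX and 396 in XinFLM.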

Other observations

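The authors' normalized log2 ratios of 28K_167_D03, turned to XinWX over XinFLM, were 1.66, 1.70 and 0.98 on replicates 1, 2 and 3 of -1 DPA. At 0 DPA they were 0.35, 0.20 and 0.92, and at 1 DPA 1.59, 1.87 and 0.81. The replicate 3 arrays again gave values of 0.81 to 0.98 at all stages. On the dye-swapped arrays XinWX was in the Cy5 channel and was higher there too, with log2 ratios of 1.64, 0.22 and 1.91, against means of 1.31, 0.65 and 1.20 over the other 2 arrays of each stage.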
